A study of Mus musculus with 6 samples.

Results

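The NR4A genes (Nr4a1, Nr4a2 and Nr4a3) and the EGR genes (Egr1, Egr2 and Egr3) were followed in regulatory T cells (Treg cells) of the mouse colon. They were picked by name, and each of the 6 symbols matched 1 row of a table of 32090 genes. All 6 members passed the filter on low counts, which kept 12557 genes. Cytometric sorting took live CD45+ CD4+ Foxp3+ cells out of the lamina propria of the colon of untreated mice on the C57/BL6 background, for bulk RNA sequencing. The WT group carried Foxp3YFP-Cre, a YFP-tagged Cre recombinase expressed from the Foxp3 locus and hence in Foxp3+ cells. The KO group carried the same Cre and floxed alleles of Il23r, the interleukin-23 receptor gene (Il23rflflFoxp3YFP-Cre). Each group had 3 libraries, each a pool from 5 or more animals. The age of the mice is not given in the sources used here.

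NR4A proteins are orphan nuclear receptors, and EGR proteins are zinc finger transcription factors. Both families are immediate early genes, transcribed within minutes of a stimulus without the need for new protein. In T cells they are switched on by the antigen receptor through calcium and MAP kinase signalling, and Nr4a1 is widely used as a reporter of that signal. In Treg cells the NR4A factors act upstream of Foxp3 and help keep Treg identity, while Egr2 and Egr3 restrain T cell activation and Egr1 and Egr2 drive the gene of their own co-repressor, Nab2. Immediate early genes are also known to respond to tissue digestion and sorting, whose part in the levels below was not tested.

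The promoters are shown because promoter sites are known to carry calcium and MAP kinase signals to these genes. Only the motifs named below were searched. The sequences are RefSeq sequences of GRCm38.p6, cut to at most 250 bases before a transcription start and to the part that lies in no annotated exon of the gene in GENCODE M21. Windows for Nr4a1, Nr4a2, Nr4a3 and Egr2 were used, and the promoters of Egr1 and Egr3 were not examined. For Egr2 1 of 5 listed starts is printed, the one of 3 clustered starts whose window lies outside annotated exons. Capitals mark the motif matches described after the sequences.
Nr4a1, chr15:101266596-101266845, plus strand: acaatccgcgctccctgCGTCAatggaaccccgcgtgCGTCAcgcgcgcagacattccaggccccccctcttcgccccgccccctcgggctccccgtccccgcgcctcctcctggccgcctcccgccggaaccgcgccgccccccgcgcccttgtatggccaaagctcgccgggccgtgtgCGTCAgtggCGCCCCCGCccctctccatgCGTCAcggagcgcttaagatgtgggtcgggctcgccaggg
Nr4a2, chr2:57124004-57124253, minus strand: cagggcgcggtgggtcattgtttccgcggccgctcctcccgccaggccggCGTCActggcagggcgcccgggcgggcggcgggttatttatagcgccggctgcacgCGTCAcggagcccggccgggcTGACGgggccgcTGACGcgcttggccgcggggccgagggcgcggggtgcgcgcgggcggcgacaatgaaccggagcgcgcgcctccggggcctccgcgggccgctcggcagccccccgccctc
Nr4a3, chr4:48045055-48045152, plus strand: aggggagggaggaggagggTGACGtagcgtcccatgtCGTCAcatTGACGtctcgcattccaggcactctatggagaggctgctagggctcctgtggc
Egr2, chr10:67537619-67537868, plus strand: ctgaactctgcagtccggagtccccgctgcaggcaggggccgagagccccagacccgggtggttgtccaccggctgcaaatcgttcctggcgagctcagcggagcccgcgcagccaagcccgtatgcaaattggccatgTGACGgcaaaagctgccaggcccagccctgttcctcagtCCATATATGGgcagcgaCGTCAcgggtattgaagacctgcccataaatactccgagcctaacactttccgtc

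Each NR4A promoter held 4 CRE half-sites in the full 250 bases before its start. The CRE half-site (TGACG, searched on both strands, so CGTCA on the other) is the core letters bound by CREB, a factor that calcium and cyclic AMP signals activate. For Nr4a3 the fourth of these lies inside an exon annotated in GENCODE M21 and is not printed. Of 32536 distinct RefSeq windows of the same length, 17.9% held at least 1 half-site and 45 windows, or 0.138%, held at least 4. The letters G and C made up 74.4% of the Nr4a1, 80% of the Nr4a2 and 63.6% of the Nr4a3 window. The 32536 windows were not matched for this, so the shares are not those of windows of like composition. The full CRE (TGACGTCA, which contains the half-site on both strands) was in none of the printed windows and in 1.56% of all windows. The printed Egr2 window held 2 half-sites and, 63 to 72 bases before the start, a CArG box, the site of serum response factor through which MAP kinase signals act, and 1.48% of windows held a CArG box. None of the NR4A windows held a CArG box. The windows of the other 2 clustered Egr2 starts overlap the printed Egr2 window and hold the same motif counts, while another start had a CArG box and no half-site, and the most upstream start had none of the motifs. The Nr4a1 window held 1 match to the EGR site, the binding sequence of the EGR proteins themselves, between its half-sites, as did 3.09% of windows. The NBRE (AAAGGTCA), the site that NR4A proteins bind, was in none of the 4 windows and in 1.35% of all. These are matches of letters, and binding was not measured.

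**Figure D1:**
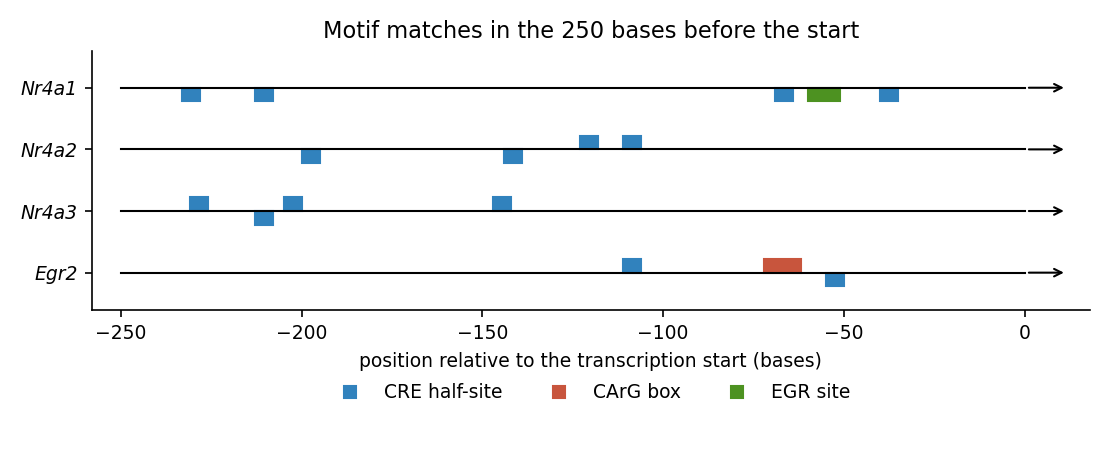
Motif matches in the 250 bases before the transcription start of Nr4a1, Nr4a2, Nr4a3 and Egr2, with position relative to the start in bases on the horizontal axis. Boxes above a line lie on the strand of the gene and boxes below it on the other strand; each NR4A line carries 4 CRE half-sites and the Egr2 line carries 2 and a CArG box.

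The 6 libraries held between 9680503 and 20654340 estimated counts. The RNA integrity number was 5 in WT2 and between 7.9 and 8.8 in the others. WT1 and KO1 came from sort batch A, WT2 and WT3 from batch B, and KO2 and KO3 from batches C and D. Levels are given as CPM, a count relative to the TMM-scaled total of its library, which makes libraries comparable. Il23r itself stood at 19.4 CPM in WT1, 38.3 in WT2 and 13.6 in WT3. KO1, with 18.4 CPM, lay inside that range and is called the library labelled KO1 from here on, while KO2 held 4.99 and KO3 8.96 CPM. Xist, the RNA of the inactive X chromosome, was at or under 0.284 CPM in each WT library and at or above 1182 CPM in each KO library. Y-linked genes summed to 264, 475 and 273 CPM in WT, to 179 CPM in the library labelled KO1, 72.8 CPM in KO3 and 2.19 CPM in KO2, so 2 of the 3 KO pools held transcripts of both kinds. The sex makeup of the pools thus differed with genotype, and their parts cannot be told apart in any comparison here. KO2 and KO3 were by far the closest pair of libraries, with a median chi-square per gene of 3.25 between their counts against 14.9 to 33.6 in the other 14 pairs. Over genes with 20 or more counts, 46.7% differed between them beyond counting error at the 95% level. They were counted as separate samples, as labelled. Their sort batches (C and D) and their Y-linked sums (2.19 CPM in KO2, 72.8 CPM in KO3) differed. Whether they share animals was not tested, and results with their counts summed are given as an alternative. The 9 tested genes of T cell and Treg identity summed to between 8775 and 9749 CPM per library, and none of them was called, in the sense of an adjusted p under 0.05. Single genes of this list were less even. Foxp3 ranged from 567 CPM in WT2 to 1603 CPM in the library labelled KO1, with KO2 the next lowest at 1126 CPM.

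All 6 genes were expressed in every library, at levels spanning more than an order of magnitude. Levels between genes were compared as CPM per kilobase of the longest GENCODE M21 transcript. Nr4a1 stood at 309 ± 56.8 (SD, n = 6 libraries) and Nr4a3 at 297 ± 54.3 CPM per kilobase, and 98.96% and 98.9% of tested genes with a known length stood lower. These neighbours in the order did not separate, with Nr4a1 the higher in 4 of 6 libraries. Egr1 followed at 182 ± 29.5 CPM per kilobase and was below Nr4a3 in 6 of 6 libraries, by 1.09-fold to 1.99-fold. Nr4a2 was next at 43.6 ± 9.65 CPM per kilobase, below Egr1 in 6 of 6 libraries by 2.98-fold to 5.40-fold. Egr2, at 7.74 ± 5.33, and Egr3, at 4.74 ± 1.26 CPM per kilobase, were the lowest, and their order changed between libraries, with Egr2 higher in 4 of 6. These 2 low genes still had 103 to 571 counts (Egr2) and 171 to 356 counts (Egr3) per library, and Nr4a3 had 17051 to 32553. Together the NR4A genes took between 0.192% of all counts, in the library labelled KO1, and 0.289%, in KO2.

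The main comparison asked whether loss of Il23r in Foxp3+ cells went along with a different level of these factors. None of the 6 members was called, against 0.0239% of all genes tested (3 of 12557; edgeR's quasi-likelihood test with Benjamini-Hochberg adjustment over all genes), or 0.0159% higher and 0.00796% lower in KO. At an unadjusted p under 0.05 the count was 0 of 6 members higher and 1 of 6 lower in KO, the latter Nr4a2. Of all genes tested, 9.37% reached that level, split into 5.02% higher and 4.35% lower in KO, and DESeq2 called none of the 6. The groups did not overlap in 1 of 6 members, again Nr4a2, against 17.7% of all genes, so neither count sets the members apart from other genes. Each p-value sets the difference between the groups against the spread between libraries within a group. That spread takes in sort batch and RNA integrity as well as pools of mice. Sort batches B, C and D each held libraries of 1 group only, so batch also enters the difference itself. KO2 and KO3 enter the test as separate samples, and whether they share animals was not tested. In bulk RNA fewer cells of a type and less RNA per cell cannot be told apart.

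**Figure D2:**
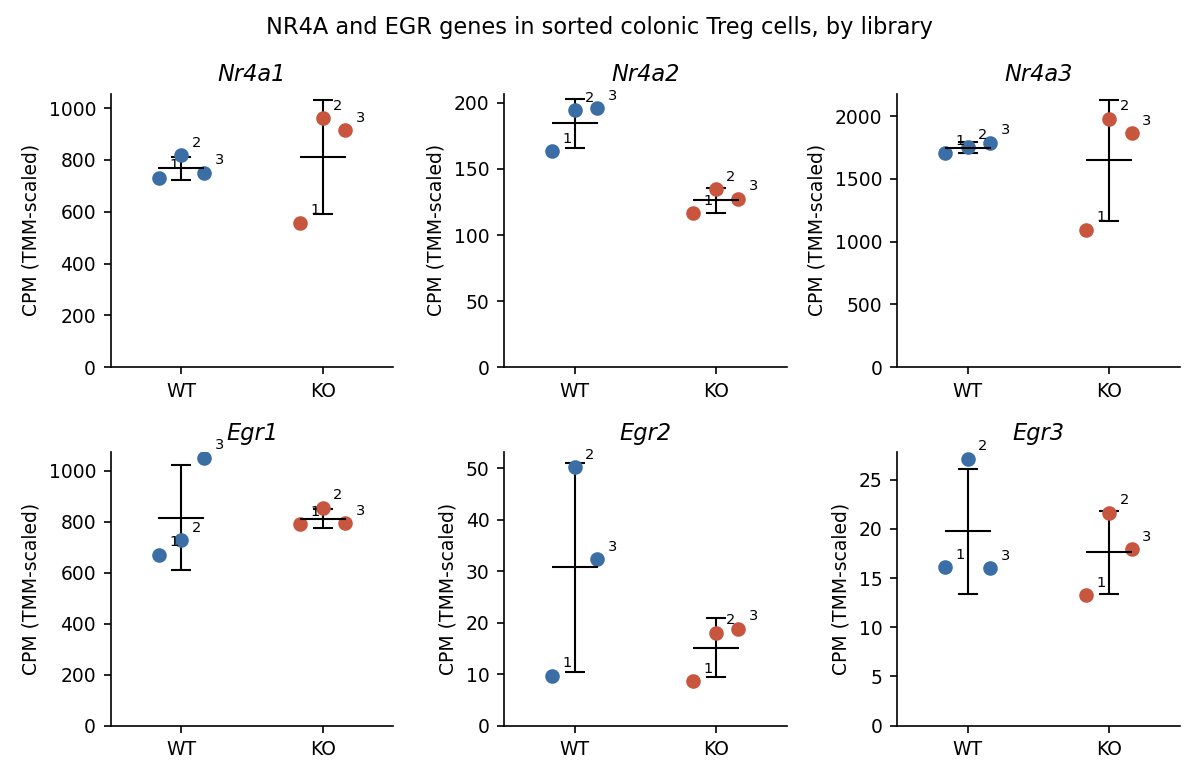
TMM-scaled CPM of each member in the 3 WT (blue) and 3 KO (red) libraries, numbered by replicate, with the mean and SD as bars and a linear axis from 0 in each panel. Only in Nr4a2 do all KO points, 116 to 135 CPM, lie below all WT points, 163 to 196 CPM.

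Among the receptors, Nr4a1 (Nur77, Entrez 15370, chromosome 15), the receptor whose promoter drives the usual antigen-receptor reporters, stood at 732 CPM in WT1, 819 in WT2 and 751 in WT3. The library labelled KO1 held 557 CPM, KO2 961 and KO3 916. The KO values thus lay on either side of the narrow WT range, and the group means were 767 ± 45.8 and 811 ± 221 CPM (SD, n = 3 each). With KO set against WT, the log2 fold change was 0.08 (SE 0.23), with a 95% interval from -0.43 to 0.59 (edgeR, adjusted p = 0.935).

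Nr4a3 (NOR-1, Entrez 18124, chromosome 4), the receptor that acts with Nr4a1 in Treg development in the thymus, repeated this picture at a higher count. The WT libraries held 1704, 1752 and 1789 CPM, the library labelled KO1 1096, KO2 1981 and KO3 1866. The group means were 1749 ± 43.0 and 1648 ± 481 CPM (SD, n = 3 each), with a log2 fold change of -0.09 (SE 0.23; 95% interval -0.61 to 0.44; edgeR, adjusted p = 0.932). Without the library labelled KO1 the sign turned for Nr4a3, to 0.13, and the log2 fold change of Nr4a1 became 0.28.

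Nr4a2 (Nurr1, Entrez 18227, chromosome 2), best known from dopamine neurons and able to induce Foxp3 in mouse T cells, was the member with the lowest p. Its level was 163 CPM in WT1, 194 in WT2 and 196 in WT3, against 116 in the library labelled KO1, 135 in KO2 and 128 in KO3. Every KO library was below every WT library, where 8.01% of all genes did the same, and the means were 185 ± 18.3 and 126 ± 9.34 CPM (SD, n = 3 each). The log2 fold change was -0.55 (SE 0.19), a fold of 0.685, with an unadjusted 95% interval from -0.97 to -0.12. It was not called (edgeR, adjusted p = 0.487), and DESeq2 gave an adjusted p of 0.110. Its value stayed between -0.63 and -0.49 over 17 alternatives, whose adjusted p ran from 0.110 to 0.999. In sort batch A, the one batch with both groups, the library labelled KO1 lay below WT1 by a log2 difference of -0.49, with 1 library each. In the authors' deposited table its log2 fold change was -0.46 with an adjusted p of 0.331.

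Among the EGR factors, Egr1 (Zif268, Entrez 13653, chromosome 18), an activator that serum response factor and MAP kinase signals induce in many cell types, had nearly the same mean in both groups. WT1 held 672, WT2 727 and WT3 1052 CPM, and the library labelled KO1 held 790.0, KO2 856 and KO3 794. WT3 was the high library, and the KO values lay inside the WT range. The means were 817 ± 206 and 813 ± 37.0 CPM (SD, n = 3 each), with a log2 fold change of -0.01 (SE 0.21; 95% interval -0.47 to 0.46; edgeR, adjusted p = 0.995).

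Egr2 (Krox20, Entrez 13654, chromosome 10), which restrains T cell responses to self and is linked to anergy, varied most. WT1 had 9.71 CPM, WT2 50.2 and WT3 32.4, and the library labelled KO1 had 8.64, KO2 18.1 and KO3 18.8. The groups overlapped, and the lowest library of each group was that of sort batch A. The highest library was 5.81 times the lowest, and 72.2% of tested genes varied less (SD of log2 CPM over 6 libraries), against 6.61% to 23.9% for the other members. The means were 30.8 ± 20.3 and 15.2 ± 5.67 CPM (SD, n = 3 each), and the log2 fold change was -1.02 (SE 0.58; 95% interval -2.33 to 0.29; edgeR, adjusted p = 0.603). It was -0.17 between the 2 libraries of batch A, -0.49 without WT2 and -1.44 without WT1. It was -0.53 with the RNA integrity number added to the fit and -0.34 in limma-voom with quality weights, and no alternative called it.

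Egr3 (Entrez 13655, chromosome 14), which shares the restraining role of Egr2 in T cells, had 16.1 CPM in WT1, 27.1 in WT2 and 15.999 in WT3. The library labelled KO1 had 13.3 CPM, KO2 21.7 and KO3 17.9. WT2 was the high library, as for Egr2. The means were 19.8 ± 6.39 and 17.6 ± 4.20 CPM (SD, n = 3 each), with a log2 fold change of -0.16 (SE 0.42; 95% interval -1.10 to 0.77; edgeR, adjusted p = 0.928), and without WT2 it turned to 0.12. In the authors' deposited table none of the 6 members had an adjusted p under 0.05, and the log2 fold change of Egr3 was -0.70 there (adjusted p = 0.683). That table called 2.41% of its rows with an adjusted p.

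**Figure D3:**
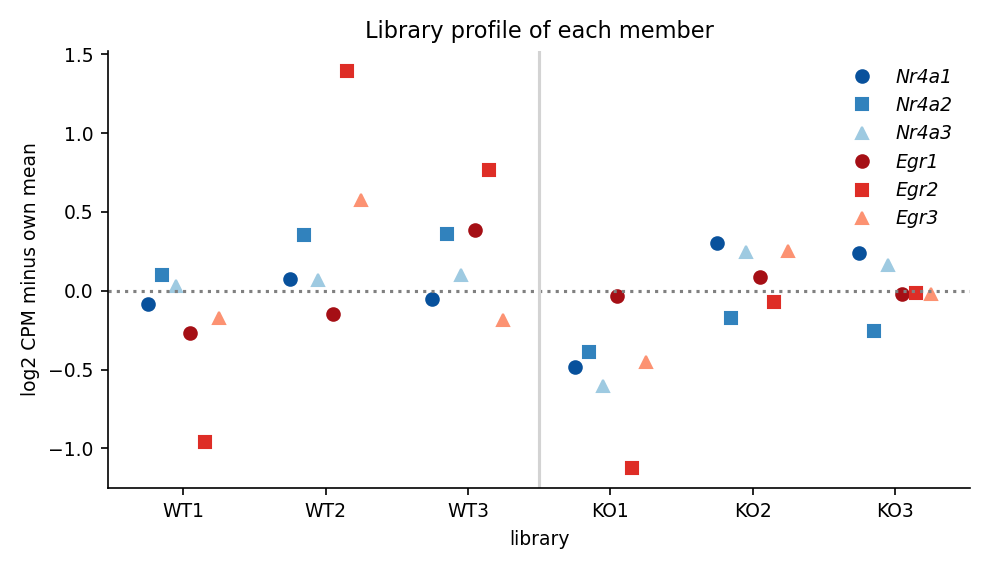
Log2 CPM of each member minus its own mean over the 6 libraries (vertical axis), by library (horizontal axis), with a point for each gene. The library labelled KO1 holds the lowest value of 5 of 6 members, and the Egr2 points spread furthest.

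The members did not vary as 1 block over the libraries. The library labelled KO1 was lowest for 5 of 6 members, with Egr1, lowest in WT1, as the exception. WT2, the library of RNA integrity 5, was highest for Egr2 and Egr3, WT3 for Nr4a2 and Egr1, and KO2 for Nr4a1 and Nr4a3. Nr4a1 and Nr4a3 followed each other closely. The root mean square distance between their centred log2 CPM profiles was 0.10 over 6 libraries, which put each as number 12 in the other's order of 7788 genes with a mean of at least 10 CPM. The genes nearest to Nr4a1 were Gse1 (distance 0.04), Pisd (0.06) and Nfkbiz (0.07), the last an inhibitor-like NF-kB cofactor that is itself an early gene. Those nearest to Nr4a3 were Tecr, Elovl5 and Vrk1 (0.06 to 0.07). Nr4a2 was nearest to Ranbp9, 9930021J03Rik and Rab21 (0.06 to 0.07), and stood at 0.36 from Nr4a1 and 0.30 from Nr4a3. Egr1 was nearest to Ripor2, Clptm1l and Dync1h1 (0.06 to 0.07) and Egr3 to Apaf1, Tank and Zfp800 (0.05 to 0.06). Egr2 was nearest to Lmo4 (0.22), Hspb1 (0.25) and B3galnt2 (0.25). These distances are not scaled to the size of a profile, so a gene that varies more has larger ones. The root mean square of the centred Egr2 profile was 0.89, against 0.20 to 0.33 for the other members. The mean profile of the 6 members was nearest to Klf12, Mbnl2 and Atp6v1g1 (0.06 to 0.07).

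Ratios of counts between members do not depend on how libraries are scaled, and 15 pairs were compared. The count ratio of Nr4a3 to Nr4a1 was 2.33, 2.14 and 2.38 in WT, 1.97 in the library labelled KO1, 2.06 in KO2 and 2.04 in KO3. It had the narrowest range of the 15 ratios, 1.21-fold from lowest to highest library, and was lower in each KO library, by a mean log2 difference of -0.17. The count ratio of Nr4a2 to Nr4a1 was 0.223, 0.237 and 0.261 in WT, 0.209 in the library labelled KO1, 0.140 in KO2 and 0.139 in KO3. It too was lower in each KO library, by a mean log2 difference of -0.59, though the library labelled KO1 stood nearer to WT1, its partner in batch A, than to KO2 or KO3. Of 11514 genes with counts in every library, 4.62% had a ratio to Nr4a1 that was lower in KO without overlap. The ratio of Egr1 to Nr4a2 was higher in each KO library, by 0.57, as was the ratio of 31% of genes to Nr4a2. For these 3 pairs the two-sided exact permutation test returned p = 0.1, the smallest that 3 against 3 libraries allow, or 0.5 adjusted over 15 pairs, and the other 12 pairs overlapped between groups. The ratio of Egr2 to Egr1 had the widest range of the 15, 6.31-fold, from 0.0109 in the library labelled KO1 to 0.0690 in WT2.

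**Figure D4:**
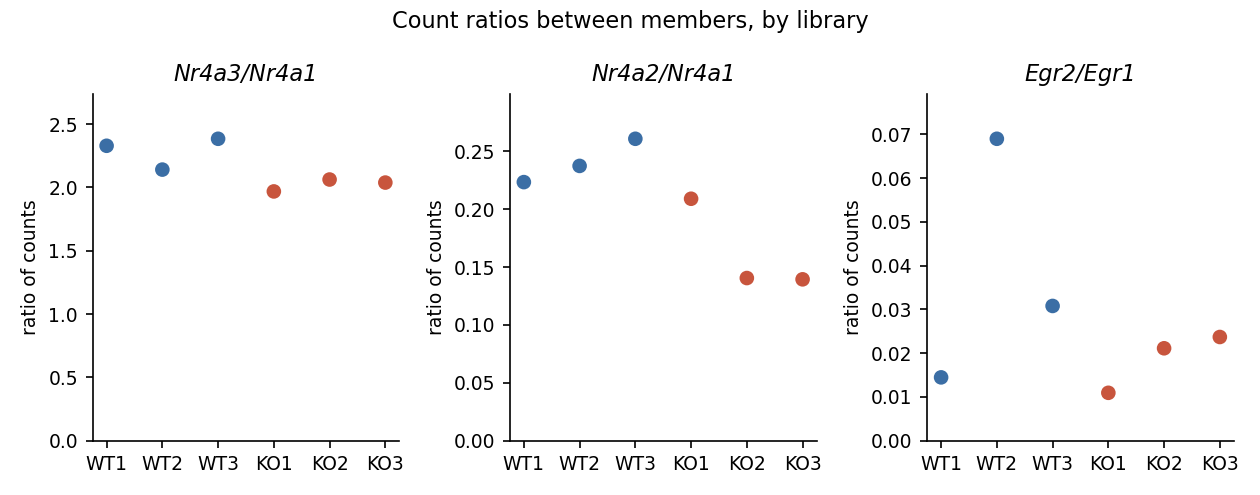
Count ratios of Nr4a3 to Nr4a1, Nr4a2 to Nr4a1 and Egr2 to Egr1 by library (WT blue, KO red), on linear axes from 0. The KO points lie below the WT points in the first and second panels, and the Egr2 to Egr1 ratio peaks at 0.0690 in WT2.

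The partners through which EGR and NR4A factors act were compared next. Of 8 tested genes among 9 listed co-repressors and partners, 0 passed in either direction and 4 had a positive log2 fold change. The median was -0.01 beside -0.04 for all genes tested. The groups did not overlap in 2 of the 8, or 25%, beside 17.7% of all genes tested. Nab2 (NGFI-A binding protein 2), the co-repressor that EGR proteins induce and that then blocks them, had the smallest p. WT1 held 103, WT2 53.5 and WT3 87.0 CPM, against 169.8 in the library labelled KO1, 229 in KO2 and 249 in KO3. Every KO library was above every WT library, where 9.68% of all genes did the same. The means were 81.2 ± 25.2 and 216 ± 41.1 CPM (SD, n = 3 each), with a log2 fold change of 1.41 (SE 0.28; unadjusted 95% interval 0.79 to 2.03). It did not pass over all genes in the edgeR fit (adjusted p = 0.384), while DESeq2, which called 1.89% of genes, gave an adjusted p of 0.00176. The log2 fold change ran from 1.14 to 1.61 over 17 alternatives, whose adjusted p ran from 0.00176 to 0.999, and was 0.72 within batch A. In the authors' deposited table it was 1.33 with an adjusted p of 0.0102. In GENCODE M21 the Nab2 locus overlaps Nemp1 over 1668 bases, the antisense gene Gm16229 over 1646 and Stat6 over 40. All lie on the other strand. Since it is not stated whether the libraries keep strand, reads from the shared stretches cannot be told apart. No level was obtained for Nemp1 or Gm16229. Stat6 averaged 109 ± 27.4 CPM over WT and 150.1 ± 18.8 CPM over KO (SD, n = 3 each; edgeR log2 fold change 0.46, SE 0.24). Its KO libraries all lay above its WT libraries, though KO2 (131.5 CPM) barely exceeded WT3 (131.3 CPM).

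Rcor1, a scaffold of a co-repressor complex, averaged 102 ± 19.9 CPM over WT and 68.9 ± 11.5 CPM over KO libraries (SD, n = 3 each), and its log2 fold change of -0.56 was not called (edgeR, adjusted p = 0.522). Rxrb, a retinoid X receptor, was at 17.9 ± 9.97 and 31.3 ± 10.3 CPM. The general co-repressor Ncor1 was at 706 ± 111 and 584 ± 21.6 CPM and the coactivator Ncoa2 at 397 ± 107 and 324 ± 36.1 CPM (SD, n = 3 each), and both overlapped between groups.

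Genes that carry the antigen-receptor signal to the NR4A and EGR promoters gave 0 calls in either direction among 34 tested, with 12 positive and a median log2 fold change of -0.14. Rasgrp1, which activates Ras downstream of the receptor, had the smallest p, with 668, 986 and 674 CPM in WT, 483 in the library labelled KO1, 582 in KO2 and 524 in KO3. Every KO library was below every WT library, as for 8.01% of all genes. The log2 fold change was -0.55 (SE 0.21; edgeR, adjusted p = 0.488). In this list the groups did not overlap in 2 of the 34, or 5.88%, beside 17.7% of all genes tested. Cabin1, an inhibitor of calcineurin and MEF2, was at 49.3 ± 32.4 and 99.3 ± 24.8 CPM, and Crtc3, a CREB coactivator, at 100.3 ± 20.6 and 135 ± 13.8 CPM (SD, n = 3 each). The adaptor Lcp2 (SLP-76) was at 701 ± 33.2 and 651 ± 46.8 CPM.

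Genes described as targets of the 2 families in T cells included Nab2 and gave 0 calls among 23 tested, with 12 positive and a median log2 fold change of 0.01. Tox, a nuclear factor of chronically stimulated T cells, had 419, 441 and 346 CPM in WT, 245 in the library labelled KO1, 254 in KO2 and 292 in KO3. Its KO libraries all lay below its WT libraries, as for 8.01% of all genes. The log2 fold change was -0.61 (SE 0.18; edgeR, adjusted p = 0.436). In this list the groups did not overlap in 2 of the 23, or 8.7%, beside 17.7% of all genes tested. Il2 was at or near 0 in 5 libraries and at 11.1 CPM in WT3. Ctla4, an inhibitory receptor, was the most abundant target at 2821 ± 357 and 2652 ± 127 CPM, and Foxp3 followed at 1043 ± 425 and 1365 ± 239 CPM (SD, n = 3 each).

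The other immediate early and activation genes were abundant too, and the 42 tested gave 0 calls, 24 positive log2 fold changes and a median of 0.04. Their summed level was 34799 to 36135 CPM in WT, 31679 CPM in the library labelled KO1 and 38263 and 35596 CPM in KO2 and KO3, so that library was again the lowest. The groups did not overlap in 11 of the 42, or 26.2%, beside 17.7% of all genes tested. By contrast, 7.14% of the 42 had an unadjusted p under 0.05 in edgeR, beside 9.37% of all genes, so the 2 counts differ in direction. Tnfaip3 (A20), a brake on NF-kB, was the most abundant at 5241 ± 1001 and 4591 ± 401 CPM, followed by the MAP kinase phosphatase Dusp1 at 4014 ± 1511 and 4001 ± 584 CPM (SD, n = 3 each). The 3 with the smallest p were Jund, Atf3 and Csrnp1, none of them called (edgeR, adjusted p = 0.487, 0.487 and 0.497). The AP-1 subunit Jund was at 133 ± 33.4 and 201 ± 14.4 CPM and Csrnp1 at 223 ± 49.99 and 356 ± 98.0 CPM. The stress-induced factor Atf3 was at 167 ± 16.2 and 115 ± 14.8 CPM (SD, n = 3 each).

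**Figure D5:**
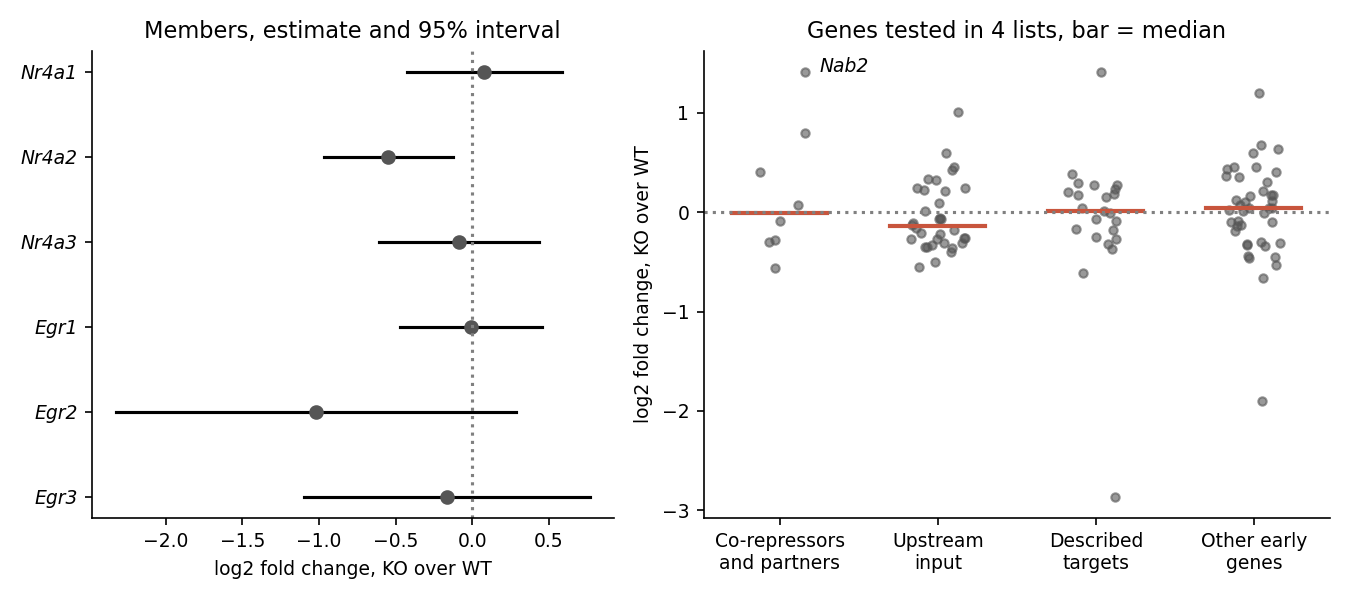
Left, log2 fold change of KO over WT with its 95% interval for each member (points and bars); right, the log2 fold changes of the tested genes of 4 lists (points) with the list median (red bar). The interval of Nr4a2 alone lies below 0, the medians lie between -0.14 and 0.04, and Nab2 stands at 1.41.

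Macrophages, B cells and epithelial cells also express NR4A and EGR genes, and some of their markers were present. Counts and medians below cover the tested markers, while the sums take in every listed marker found by symbol, tested or not. Of 25 tested macrophage, monocyte and dendritic cell markers 24 had log2 fold changes above 0, and their median log2 fold change was 0.88. In edgeR 0 of them were called and 9 were higher in KO at an unadjusted p under 0.05, or 36% beside 5.02% of all genes, and DESeq2 called 1. Their summed level was 1940 to 2972 CPM in WT and 2450 to 3676 CPM in KO, highest in the library labelled KO1. Much of it came from the 2 most abundant markers, Cd74 and Ccr2. Cd74 was at 663 ± 231 and 770 ± 155 CPM and Ccr2 at 672 ± 71.3 and 671 ± 142 CPM (SD, n = 3 each), and both overlapped between groups. Their log2 fold changes, 0.22 and -0.0016, lay below the list's median of 0.88. The groups did not overlap in 7 of the 25 tested markers, or 28%, beside 17.7% of all genes tested. Of 13 tested epithelial markers 10 had log2 fold changes above 0, and the list's median log2 fold change was 0.75. edgeR called 1 of the 13 (Fcgbp) higher in KO, beside 0.0159% of all genes tested. DESeq2 called 3 of 13, beside 1.89% of its genes. At an unadjusted p under 0.05 in edgeR 4 were higher in KO, or 30.8% beside 5.02% of all genes. The groups did not overlap in 4 of the 13, or 30.8%, beside 17.7% of all genes tested. The sums were 30.2 to 74.7 CPM in WT and 71.3 to 199 CPM in KO. B cell and plasma cell markers summed to 1152 to 4338 CPM in WT and 1516 to 1763 CPM in KO, with 3 of 9 positive, a median log2 fold change of -0.64 and 0 called by edgeR or DESeq2. Of the 9 tested stromal, endothelial and other lymphocyte markers 2 were positive and 0 were called by edgeR or DESeq2. The median log2 fold change of these 9 was -0.78. The sums of the listed markers were 61.3 to 114 CPM over all libraries, and Kdr, Ncr1 and Tpsb2 had 0 counts in every library. The part of these cells in the levels of the members was not tested.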

How the data were processed

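Bulk RNA of 3 WT and 3 KO libraries was analysed. Per the labels' protocols, RNA from a micro-scale column kit was amplified with the Ovation RNASeq System V2, which can distort low genes. The submitters' processing notes name Salmon 1.4.0, DESeq2 1.34.0, fastp 0.20.0 and R 4.1.2. Build, annotation, strand setting and transcript-to-gene step: not given in the sources used here. The deposited table holds the authors' estimated counts, rounded to whole numbers and read as not normalized. It also holds, per the file headers, the authors' normalized signal averaged over libraries, their log2 fold change and standard error, a test score and a p-value. A further 6 columns of normalized values match no sample by name and were not used.

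Rows sharing an Entrez identifier were summed (71 of 32161 removed). In R 4.3.3, edgeR 4.0.16 served for the filter (filterByExpr, count 10, total 15), TMM scaling and a quasi-likelihood test, genotype as the only term. The threshold was an adjusted p of 0.05, log2 CPM used a prior count of 2, and intervals are 95% and unadjusted. Alternatives were DESeq2 1.42.0 and limma 3.58.1, beside scaling, filtering, a replicate block, batch, RNA integrity, KO2 and KO3 summed, and each library left out. Adjusted p-values that DESeq2 left empty stayed empty. The edgeR step was tested on simulated data.

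Transcript lengths matched 98.02% of tested genes by symbol. The members, lists and tests were chosen with earlier results of these data known. Named genes were all members and, in each of 4 pathway lists, any called gene, the 3 with the smallest p and the 2 most abundant. Marker lists are given as counts and sums, with the 2 most abundant genes of the macrophage list named. The 3 nearest patterns of each member were named, and pairwise ratios between members were added after the data were seen.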

Additional observations from a re-analysis of the deposited data

How the results depend on the processing

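No member was called under any of 17 alternatives. Nr4a2 and Egr2 kept a negative log2 fold change in all 17, and Nr4a2 had an unadjusted p under 0.05 in all but those without KO replicate 3 and with KO2 and KO3 summed. Values near 0 changed sign. Egr1 was 0.0302 with upper-quartile scaling, 0.0158 with library size alone, 0.0306 without a filter, 0.0103 in limma-voom with quality weights, 0.0217 with the replicate number as a block and 0.00515 with batch A as a term, and ran from -0.14 to 0.22 with 1 library left out. Dusp1 was 0.0263, 0.00664, 0.0323, 0.0127 and 0.0578 under the first 5 of these and ran from -0.29 to 0.25 with 1 library left out. Nr4a3 was 0.0883 and Egr3 0.0860 in limma-voom, Egr3 was 0.119 with the RNA integrity number added, and Nr4a1 was -0.0279 with KO2 and KO3 summed. With 1 library left out Nr4a1 ran from -0.0520 to 0.28, Nr4a3 from -0.23 to 0.13, Egr3 from -0.33 to 0.12 and Il2 from -4.90 to 0.68. The cause was not tested. Over all genes, the 3 calls became 9 without a filter (8 higher in KO), 255 in DESeq2's Wald test (164 higher), 1 with the RNA integrity number, 1 with KO2 and KO3 summed, and 1 to 4 with 1 library left out. limma-voom called 2, both lower in KO. Over the 4 pathway lists, 0 calls became 1 (Nab2) in DESeq2, which also called 1 myeloid and 3 epithelial markers. The 3 ratio differences kept their sign when libraries were left out or KO2 and KO3 summed, alternatives added after the data were seen.

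The replicate numbers were not taken to pair WT and KO libraries. WT1 and KO1 share sort batch A, the other same-numbered libraries share no sort batch, and the correlations of same-numbered deviations from the group means were 0.0093, 0.0489 and 0.0258. With the replicate number as a block, 0 members and 3 genes in all were called. Among the members, the unadjusted 95% intervals of Egr2 and Egr3 were the widest, at 103 to 571 and 171 to 356 counts per library.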
